A study of Homo sapiens with 6 samples.

Results

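The 10 genes described here encode the transcriptional coactivators YAP1 and WWTR1 (the protein known as TAZ), the DNA-binding partners TEAD1 and TEAD4, the target genes CYR61, CTGF, ANKRD1 and AMOTL2, and the pathway regulators AJUBA and LATS2. They were chosen by name for their place in the Hippo pathway, with earlier results of these data known. All 10 were found among the 26255 gene symbols measured. BxPC-3, an established line of human pancreatic cancer cells, was profiled by RNA sequencing in 3 groups with 2 libraries in each: untreated cells (Parent), cells transfected with a negative control (NC-1) and cells transfected with the microRNA miR-4711-5p. Per the study's methods, RNA was taken 36 h after transfection, and the labels do not say which control duplex NC-1 is. The labels do not say that the libraries of a group came from separate cultures, so p-values measure only the spread between these libraries, which may be technical. In this bulk RNA, fewer cells expressing a gene and less RNA per cell cannot be told apart.

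In the Hippo pathway, a cascade of kinases that ends in LATS1 and LATS2 phosphorylates YAP1 and TAZ and so keeps them out of the nucleus. Unphosphorylated YAP1 and TAZ enter the nucleus, where they bind TEAD proteins and activate genes for matrix-associated proteins, cytoskeletal proteins and feedback inhibitors of the pathway itself. The pathway is known for its part in organ size and in epithelial tumours, and much of its regulation acts on the location and phosphorylation of YAP1 and TAZ, which RNA levels do not measure.

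A microRNA pairs with target messages mainly through its seed, bases 2 to 8, so the mature strand of miR-4711-5p (RefSeq, GRCh38.p14 chr1:59733269-59733291, minus strand) is shown with its seed in capitals.

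hsa-miR-4711-5p: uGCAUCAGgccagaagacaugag

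A match to the seed was searched as CTGATGC (7mer-m8) or TGATGCA (7mer-A1), and both together as CTGATGCA (8mer), in every gene's longest 3′ UTR (GENCODE v44 on GRCh37, the build of the deposited values). A site was present in 4 of the 10 genes, beside 18.4% of the 11180 tested genes with an annotated 3′ UTR. The 4 sites are shown in the sense of the message with the matched letters in capitals, because they are the positions at which these 4 genes could pair with the transfected strand. They lie at chr14:23442051-23442057 (AJUBA), chr3:134074237-134074243 (AMOTL2), chr13:21547546-21547552 (LATS2) and chr3:149236491-149236497 (WWTR1), all on the minus strand and all in 3′ UTRs.

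AJUBA (7mer-A1): gggttgtggtTGATGCAgtgtgggatg
AMOTL2 (7mer-m8): ccactctttcCTGATGCtcaggaaagc
LATS2 (7mer-m8): tttaaaaaatCTGATGCttcataattt
WWTR1 (7mer-m8): gcagggcatgCTGATGCtgagcgtaca

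The site lay in 2 of 3 coding transcripts of AJUBA, 1 of 4 of AMOTL2, 1 of 1 of LATS2 and 2 of 3 of WWTR1. None of these letters occurred in the longest 3′ UTRs of YAP1 (3484 nt), TEAD1 (7515 nt), TEAD4 (198 nt), CYR61 (908 nt), CTGF (1088 nt) or ANKRD1 (770 nt). A match is a description of the sequence, and binding was not measured in these data.

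The deposited values are FPKM, fragments normalized for exon length and library size, so levels can be set side by side between genes. The 12040 genes that averaged 1 FPKM or more (all 10 described here included) were tested with limma on log2(FPKM + 1). A gene was called where its Benjamini-Hochberg adjusted p over all tested genes was below 0.05. Log2 fold changes below are on that scale, which understates changes of low genes, and are given ± their standard error. FPKM do not keep the depth in reads, but steps between the lowest values put the other libraries at 0.751 to 1.21 times the depth of Parent library 1. The FPKM of all genes summed to between 493145 and 550772 per library. The epithelial markers were all at 1 FPKM or more in all groups, with summed levels of 5.87e+03 to 6.25e+03 FPKM in Parent, 5.25e+03 to 5.53e+03 in NC-1 and 5.19e+03 to 5.25e+03 with miR-4711-5p. Leukocyte markers stayed at or under 0.139 FPKM, and 1 of 6 fibroblast and 1 of 4 endothelial markers reached a mean of 1 FPKM. Summed fibroblast markers were 1.31 to 1.87 FPKM in Parent, 2.14 to 2.47 in NC-1 and 1.92 to 2.24 with miR-4711-5p, and summed endothelial markers were 1.33 to 1.39, 3.25 to 3.53 and 0.649 to 0.775. Of the epithelial markers, the adhesion gene CDH1 moved most in fold with the treatment, from 114 and 117 FPKM in Parent and 109 and 110 in NC-1 to 28.3 and 30.9 with miR-4711-5p. The part of these shifts in the results below was not tested.

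With miR-4711-5p, the TEAD target genes CYR61, CTGF, ANKRD1 and AMOTL2 rose against both controls, by 1.52-fold to 2.76-fold against NC-1 and 2.07-fold to 3.99-fold against Parent. The message of YAP1, their coactivator, was lower than in both controls, at 0.667 times the NC-1 level and 0.852 times the Parent level. LATS2 and TEAD1 were higher than in both controls, and AJUBA was lower than in both. WWTR1 lay between the control groups and TEAD4 did not separate from NC-1. NC-1 itself differed from Parent in most of the 10 genes, so each gene is given against both.

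**Figure D1:**
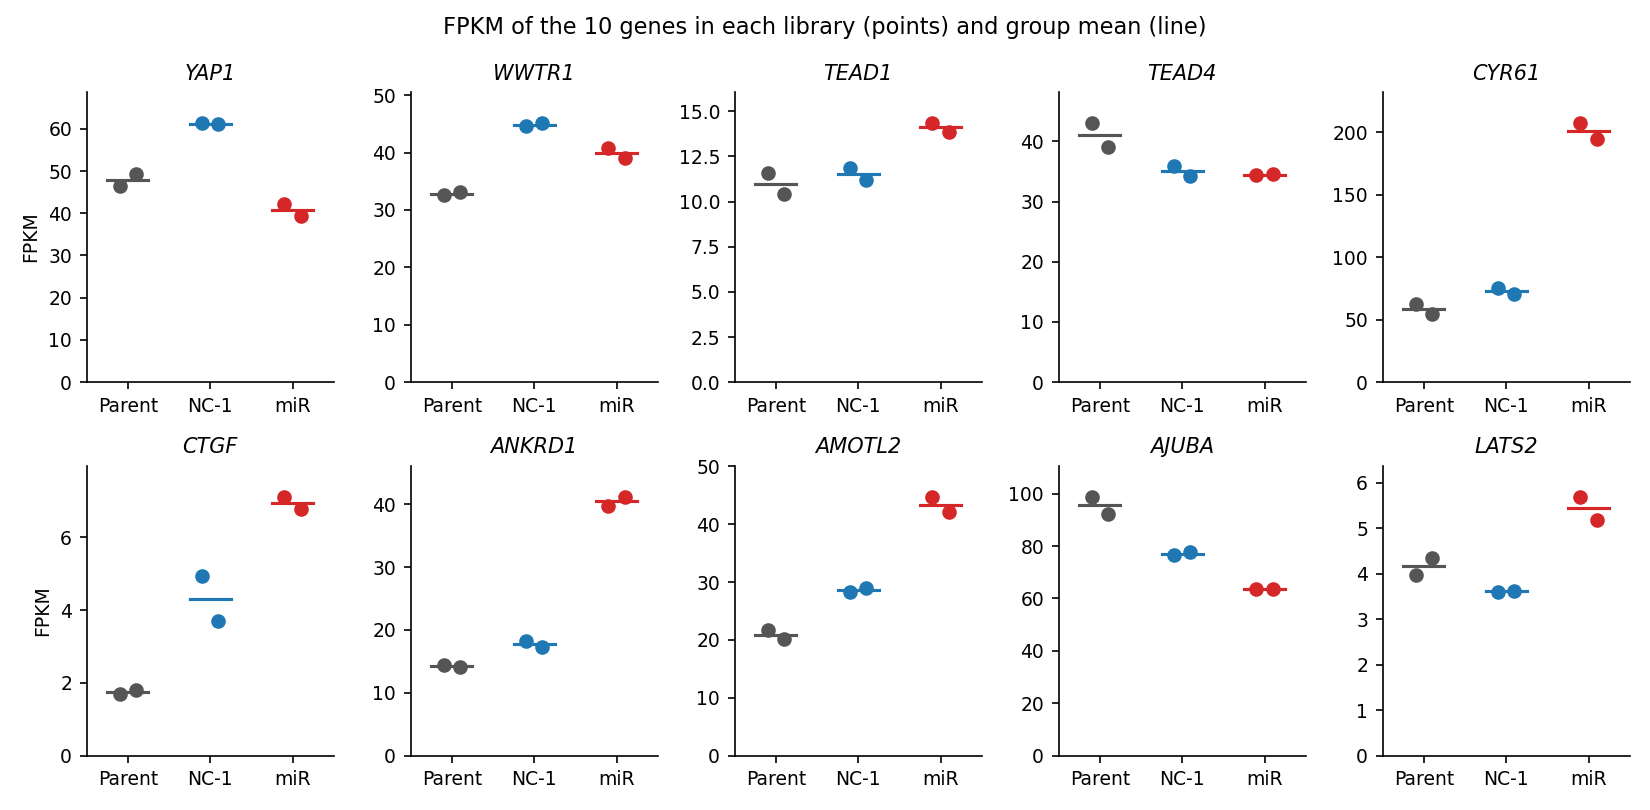
FPKM (y axis, from 0, with its own scale for each gene) of the 10 genes in the Parent, NC-1 and miR-4711-5p groups (x axis), with a point for each library and a line at the group mean. In CYR61, ANKRD1 and AMOTL2 the miR-4711-5p points sit far above the other 4 points, whereas in WWTR1 they lie between the control groups.

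Against NC-1, limma called 6 of the 10 genes higher and 3 lower, beside 18.4% of all tested genes called higher and 21.2% called lower. Against Parent it called 7 higher and 3 lower, beside 18.7% and 24.7% of all tested genes. On the log2 scale, the 10 genes had a median difference of 0.37 from NC-1 and 0.33 from Parent, where the medians over all tested genes were 0.00 and -0.01. Called against each control and with both libraries outside the range of all 4 control libraries were 6 genes above (TEAD1, CYR61, CTGF, ANKRD1, AMOTL2 and LATS2) and 2 below (YAP1 and AJUBA). Over all tested genes, 10% met the same rule above and 15.4% below. NC-1 against Parent had 6 of the 10 genes called higher and 2 lower, with 12.1% and 15.1% over all tested genes. The comparisons with miR-4711-5p share its libraries, and each control group enters a pair of them.

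**Figure D2:**
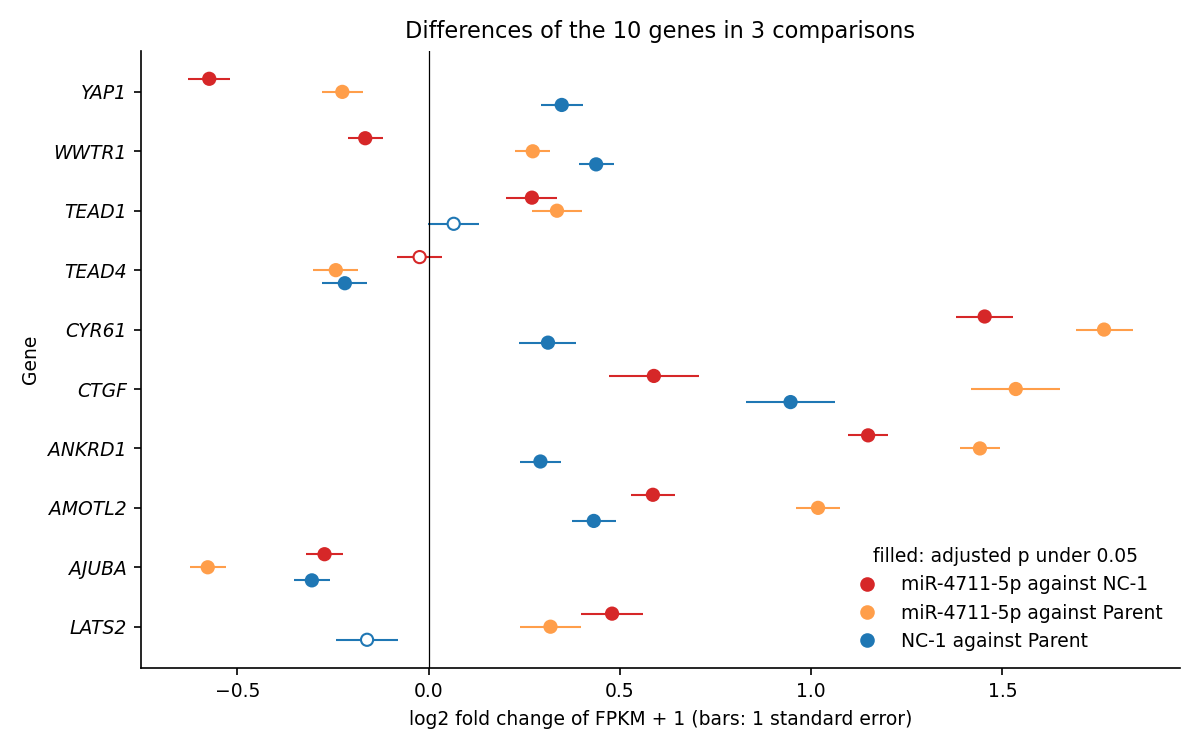
Log2 fold change of FPKM + 1 (x axis, bars of 1 standard error) for the 10 genes (y axis) in the 3 comparisons, with filled points where the adjusted p of limma was below 0.05. CYR61 and ANKRD1 lie furthest to the right against NC-1, and CYR61 and CTGF lie furthest to the right against Parent. The NC-1 against Parent point of CTGF, at 0.95, lies to the right of its miR-4711-5p against NC-1 point, at 0.59.

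YAP1, the coactivator that gives the pathway its main output, had 46.4 and 49.4 FPKM in the Parent libraries, 61.4 and 61.0 in NC-1, and 42.3 and 39.3 with miR-4711-5p. The miR-4711-5p values lay below those of all 4 controls, and the control groups did not overlap each other. Against NC-1 the log2 fold change was -0.57 ± 0.05 (limma, adjusted p = 0.000270). Against Parent it was -0.23 ± 0.05 (limma, adjusted p = 0.0139), and NC-1 was above Parent by 0.35 ± 0.05 (limma, adjusted p = 0.00555). The fall against NC-1 was called with each library left out. The fall against Parent was not called without Parent library 2 (limma, adjusted p = 0.0714) or without miR-4711-5p library 2 (0.0928). With every library set to an equal total FPKM, it was also not called (log2 fold change -0.09, limma, adjusted p = 0.250). The gene lies at chr11:101981178-102104155 (plus strand, GRCh37) and has 3 annotated pseudogenes with which reads could be shared.

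WWTR1, the paralogue of YAP1 with the same TEAD partners, had 32.5 and 33.2 FPKM in Parent, 44.6 and 45.1 in NC-1, and 40.7 and 39.0 with miR-4711-5p. The 3 groups did not overlap, and the miR-4711-5p libraries were above Parent and below NC-1. Against Parent, WWTR1 was higher by 0.27 ± 0.05 on the log2 scale with miR-4711-5p (limma, adjusted p = 0.00312) and by 0.44 ± 0.05 with NC-1 (limma, adjusted p = 0.00161). Against NC-1 it was -0.17 ± 0.05 (limma, adjusted p = 0.0258). That call was lost without any of the NC-1 or miR-4711-5p libraries (limma, adjusted p between 0.0627 and 0.148), with equal total FPKM (-0.11, limma, adjusted p = 0.106) and with eBayes without a trend (0.0503). WWTR1 lies at chr3:149235022-149454501 on the minus strand and carries the seed match shown above. Relative to Parent, YAP1 was lower and WWTR1 was higher in the same libraries, whereas relative to NC-1 both were lower. Both were also higher in NC-1 than in Parent. The YAP1 call against Parent and the WWTR1 call against NC-1 were each lost under several alternatives.

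TEAD1, which brings YAP1 and TAZ to DNA, had 11.6 and 10.4 FPKM in Parent, 11.9 and 11.2 in NC-1, and 14.3 and 13.9 with miR-4711-5p. The miR-4711-5p libraries were above all 4 controls, while Parent and NC-1 overlapped (limma, adjusted p = 0.494). The log2 fold change was 0.27 ± 0.07 against NC-1 (limma, adjusted p = 0.0164) and 0.34 ± 0.07 against Parent (limma, adjusted p = 0.00622). The call against NC-1 was lost without NC-1 library 2 (limma, adjusted p = 0.0898), miR-4711-5p library 1 (0.105) or library 2 (0.0660). The call against Parent was lost without miR-4711-5p library 1 (limma, adjusted p = 0.0547).

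TEAD4, a family member with the same DNA motif, was the more abundant of the pair, with 43.0 and 39.0 FPKM in Parent, 35.9 and 34.2 in NC-1, and 34.4 and 34.6 with miR-4711-5p. The miR-4711-5p and NC-1 libraries overlapped, with a log2 fold change of -0.02 ± 0.06 (limma, adjusted p = 0.777), and both groups were below Parent. TEAD4 was called lower than in Parent with miR-4711-5p (-0.24 ± 0.06, limma, adjusted p = 0.0145) and with NC-1 (-0.22 ± 0.06, limma, adjusted p = 0.0335). The call for miR-4711-5p was lost without Parent library 1 (limma, adjusted p = 0.0658), miR-4711-5p library 1 (0.0820) or library 2 (0.0702) and with equal total FPKM (0.156). The call for NC-1 was lost without any library except Parent 2 (limma, adjusted p between 0.0698 and 0.137). It was also lost with no filter on low values (limma, adjusted p = 0.0682), equal total FPKM (0.112), only those 2 groups in the fit (0.0695) and eBayes without a trend (0.0615).

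CYR61, which encodes a secreted matrix-associated protein and is a standard readout of YAP1 and TEAD, had 62.7 and 54.5 FPKM in Parent, 75.4 and 70.3 in NC-1, and 207 and 195 with miR-4711-5p. The groups did not overlap, and both miR-4711-5p values stood far above those of the 4 controls. The mean was 2.76 times that of NC-1 and 3.43 times that of Parent. On the log2 scale the gene rose by 1.45 ± 0.07 against NC-1 (limma, adjusted p = 1.70e-05) and by 1.77 ± 0.07 against Parent (limma, adjusted p = 6.75e-06). Ordered from the largest increase, it stood at place 63 and place 56 of the 12040 tested genes. Both calls held under each alternative run. NC-1 was above Parent by 0.31 ± 0.07 (limma, adjusted p = 0.0226), a call that was lost without Parent library 2 (limma, adjusted p = 0.0867), NC-1 library 1 (0.118) or NC-1 library 2 (0.0527) and with no filter on low values (0.0677).

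CTGF, a relative of CYR61 with the same protein architecture, was the lowest of the 10 genes in Parent, with 1.68 and 1.80 FPKM, against 4.94 and 3.70 in NC-1 and 7.13 and 6.77 with miR-4711-5p. The 3 groups did not overlap, and the NC-1 libraries lay further apart than those of the other groups. CTGF was 3.99 times Parent with miR-4711-5p and 2.48 times Parent with NC-1, so part of the difference from Parent was also present with the control. Against NC-1 the increase was 1.61-fold, or 0.59 ± 0.12 on the log2 scale (limma, adjusted p = 0.00675), and it was not called without miR-4711-5p library 1 (0.56, limma, adjusted p = 0.0564). Against Parent, CTGF rose by 1.53 ± 0.12 with miR-4711-5p (limma, adjusted p = 8.22e-05) and by 0.95 ± 0.12 with NC-1 (limma, adjusted p = 0.00257). The locus overlaps LINC01013 on the opposite strand, and the strand setting of the authors' counting is not given in the sources used here.

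ANKRD1, a muscle-type ankyrin repeat protein and YAP1 target, had 14.5 and 14.1 FPKM in Parent, 18.2 and 17.2 in NC-1, and 39.8 and 41.2 with miR-4711-5p. Its miR-4711-5p libraries were well above all 4 controls, at 2.29 times the NC-1 mean and 2.84 times the Parent mean. The log2 fold change was 1.15 ± 0.05 against NC-1 (limma, adjusted p = 1.15e-05; place 109 from the largest increase) and 1.44 ± 0.05 against Parent (limma, adjusted p = 4.73e-06; place 94). Both calls held under each alternative run. NC-1 was above Parent by 0.29 ± 0.05 (limma, adjusted p = 0.00858), and this call was lost without NC-1 library 1 (limma, adjusted p = 0.0505).

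AMOTL2, an angiomotin family protein that is a target of YAP1 and also binds and restrains it, had 21.7 and 20.2 FPKM in Parent, 28.2 and 28.9 in NC-1, and 44.8 and 42.0 with miR-4711-5p. The groups were in the same order as for CYR61, CTGF and ANKRD1, with no overlap. The log2 fold change was 0.59 ± 0.06 against NC-1 (limma, adjusted p = 0.000293) and 1.02 ± 0.06 against Parent (limma, adjusted p = 2.10e-05). NC-1 was above Parent by 0.43 ± 0.06 (limma, adjusted p = 0.00316). All of these calls held under each alternative run. In 1 of its 4 coding transcripts, AMOTL2 holds the seed match shown above, near the end of the 3′ UTR.

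LATS2, the kinase that phosphorylates YAP1 and TAZ and is itself a YAP1 target, had 3.97 and 4.34 FPKM in Parent, 3.60 and 3.62 in NC-1, and 5.69 and 5.18 with miR-4711-5p. Both miR-4711-5p libraries were above all 4 controls. Against NC-1 the log2 fold change was 0.48 ± 0.08 (limma, adjusted p = 0.00326), a call that held with each library left out. Against Parent it was 0.32 ± 0.08 (limma, adjusted p = 0.0162), and the call was lost without Parent library 1 (limma, adjusted p = 0.0807) or miR-4711-5p library 1 (0.113). NC-1 against Parent gave -0.16 ± 0.08 (limma, adjusted p = 0.176), so LATS2 differed from the 4 target genes above in the direction of its value with the control. Its only coding transcript holds the seed match shown above.

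AJUBA, a LIM-domain scaffold that binds LATS kinases and limits their action on YAP1, was the most abundant of the 10 genes in Parent, with 98.9 and 92.3 FPKM, against 76.6 and 77.7 in NC-1 and 63.8 and 63.7 with miR-4711-5p. The groups did not overlap and fell in the order Parent, NC-1, miR-4711-5p. The log2 fold change was -0.27 ± 0.05 against NC-1 (limma, adjusted p = 0.00383) and -0.58 ± 0.05 against Parent (limma, adjusted p = 0.000116), and NC-1 against Parent gave -0.31 ± 0.05 (limma, adjusted p = 0.00534). All of these calls held under each alternative run. Of the 4 genes with a seed match, AJUBA was called lower against both controls, AMOTL2 and LATS2 were called higher against both, and WWTR1 was called in opposite directions. The AJUBA locus overlaps another protein-coding gene on the same strand, so its reads may be shared.

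TEAD proteins bind the core GGAATG, which was searched on both strands (CATTCC in the opposite sense) from 250 bases before to 50 bases after each annotated start (RefSeq, GRCh38.p14). A window was available for 7 of the 10 genes, and 6 of these 7 genes had at least 1 core. TEAD1, TEAD4 and CYR61 had no window and were not searched. Some genes have several starts, and 6 of the 10 windows of the 7 genes had at least 1. Of all 35116 windows, 14% had at least 1, 1.37% at least 2 and 0.128% at least 3. CTGF had 3 and ANKRD1 had 2, and WWTR1 had none in its windows. The 250 bases before the start of these 2 genes, which also rose with miR-4711-5p, are shown in the sense of the gene with the cores in capitals, at chr6:131951373-131951622 (CTGF) and chr10:90921088-90921337 (ANKRD1), both on the minus strand.

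CTGF: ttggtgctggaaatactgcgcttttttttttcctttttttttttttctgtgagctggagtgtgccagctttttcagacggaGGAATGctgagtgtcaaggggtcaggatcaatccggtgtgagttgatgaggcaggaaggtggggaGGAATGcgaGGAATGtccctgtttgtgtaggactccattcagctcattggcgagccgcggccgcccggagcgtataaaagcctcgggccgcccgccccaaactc
ANKRD1: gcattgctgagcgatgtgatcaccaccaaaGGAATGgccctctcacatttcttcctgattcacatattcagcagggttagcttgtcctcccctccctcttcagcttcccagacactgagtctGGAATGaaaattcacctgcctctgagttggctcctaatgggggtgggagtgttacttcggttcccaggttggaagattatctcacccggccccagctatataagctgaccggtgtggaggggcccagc

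Counted from the annotated start, the cores of CTGF begin at positions -169, -104 and -95 and those of ANKRD1 at -220 and -128. Single cores were found in YAP1, AMOTL2, AJUBA and LATS2, so genes that were higher and genes that were lower both had one. The letters say nothing of whether TEAD1 or TEAD4 was bound in these cells.

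**Figure D3:**
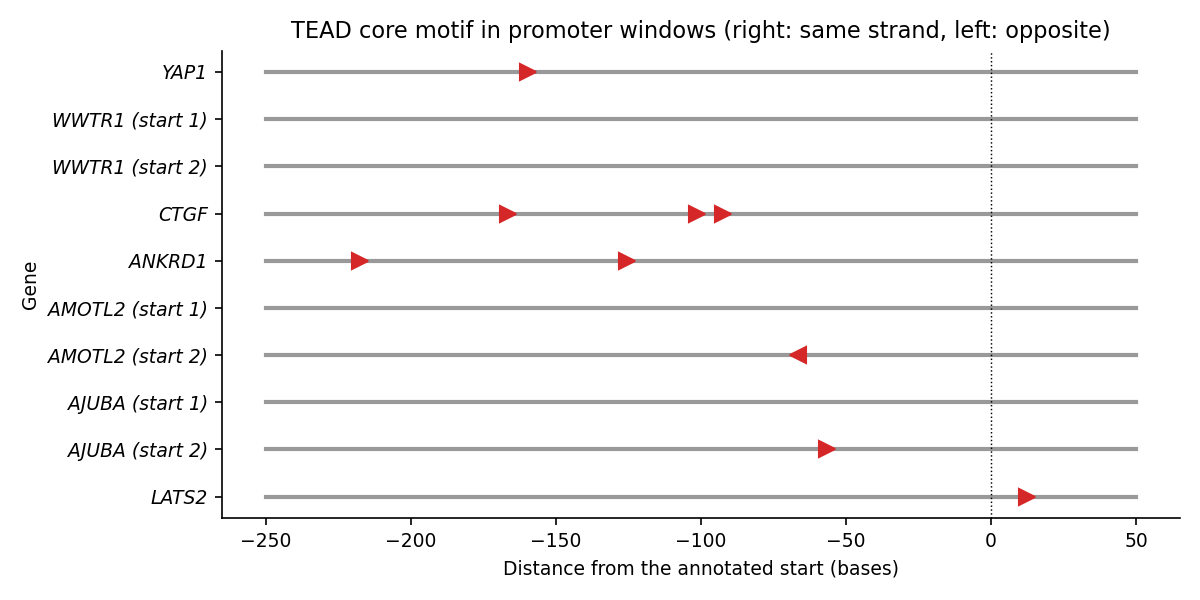
Position of each GGAATG core (x axis, distance in bases from the annotated start) in the windows of the 7 genes with one (y axis), with right-pointing marks for the sense strand and left-pointing marks for the opposite strand. CTGF has 3 cores and ANKRD1 has 2 upstream of the start.

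Other genes of the pathway were taken from 4 lists with 39 genes, of which 34 passed the filter on low values. Against NC-1, 7 of the 34 were called higher and 8 lower, beside 18.4% and 21.2% of all tested genes. Against Parent, 15 were called higher and 7 lower, beside 18.7% and 24.7%, and in NC-1 against Parent 9 were higher and 2 lower, beside 12.1% and 15.1%. The counts against NC-1 were near the shares over all genes, and the medians of the lists ranged from -0.01 to 0.19. Median-of-ratios rescaling, whose factors were 1.0058 to 1.0072 and could move little, left the counts of called genes in the lists unchanged. Equal total FPKM, a scaling chosen after seeing the data, shifted the median of all genes by 0.05 to 0.12 on the log2 scale. With it, the split was 11 higher and 7 lower against NC-1, 22 and 4 against Parent, and 14 and 0 in NC-1 against Parent.

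Of the 13 genes of the kinase cascade upstream of YAP1, 1 was higher and 4 were lower against NC-1 (18.4% and 21.2% over all tested genes), and the median was 0.01 on the log2 scale. Against Parent 4 were higher and 3 lower (18.7% and 24.7% over all tested genes), with a median of 0.08. WWC1, a scaffold that activates LATS kinases, had 8.47 and 7.65 FPKM in Parent, 10.8 and 9.39 in NC-1, and 16.0 and 15.3 with miR-4711-5p, and rose by 0.59 against NC-1 (limma, adjusted p = 0.00145). MOB1A, the cofactor of LATS kinases, fell by 0.31 (limma, adjusted p = 0.00229) and MAP4K4, a kinase upstream of LATS, fell by 0.35 against NC-1 (limma, adjusted p = 0.00108). Against Parent MOB1A and MAP4K4 were at -0.17 and -0.15 (limma, adjusted p = 0.0255 and 0.0294). Neither of these Parent calls held with equal total FPKM (limma, adjusted p = 0.588 and 0.776) or with eBayes without a trend (0.0555 and 0.0564). The MOB1A call was also lost without Parent library 1 (limma, adjusted p = 0.107) or either miR-4711-5p library (0.154 and 0.0507), and the MAP4K4 call without any Parent or miR-4711-5p library (between 0.0668 and 0.130).

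Among the relatives of AMOTL2 and AJUBA, 1 of 3 tested genes was called against NC-1, in the lower direction, beside 21.2% of all tested genes. It was AMOTL1, at 15.2 and 15.4 FPKM with miR-4711-5p against 19.7 to 23.8 in the 4 controls, and its log2 fold change was -0.54 (limma, adjusted p = 0.000520). AMOTL2 and AMOTL1 thus moved in opposite directions. Of the 4 tested genes of the other TEAD and VGLL list, VGLL4, which competes with YAP1 for TEAD, fell by 0.39 against NC-1 (limma, adjusted p = 0.00183) and by 0.57 against Parent (limma, adjusted p = 0.000276). TEAD2 had 9.41 and 7.42 FPKM in Parent, 6.48 and 6.37 in NC-1, and 10.3 and 10.9 with miR-4711-5p, and rose by 0.64 against NC-1 (limma, adjusted p = 0.00247). Its difference from Parent was 0.30 (limma, adjusted p = 0.0441), and it was lost under 9 of 13 alternatives, at 0.15 without Parent library 2 (limma, adjusted p = 0.167).

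Of 14 further YAP/TAZ targets that passed the filter, 5 were higher and 2 lower against NC-1 (median 0.07), beside 18.4% and 21.2% of all tested genes. Against Parent 8 were higher and 2 lower (median 0.32), beside 18.7% and 24.7%. Called against each control and outside the range of all 4 controls were 4 above and 1 below (MYOF), beside 10% and 15.4% of all tested genes. MYOF was at -0.38 against NC-1 and -0.43 against Parent (limma, adjusted p = 0.000739 and 0.000351). FJX1, a homologue of a Drosophila growth regulator, had 24.3 and 24.2 FPKM with miR-4711-5p against 12.1 to 14.2 in the 4 controls, and rose by 0.79 against NC-1 (limma, adjusted p = 0.000130). GADD45A, a stress-response gene, rose by 0.77 against NC-1 (limma, adjusted p = 0.000182) and 0.52 against Parent (limma, adjusted p = 0.000899). TGFB2, a ligand of the TGF-beta family, rose by 0.45 against NC-1 (limma, adjusted p = 0.0103), a call that was lost without NC-1 library 1 (limma, adjusted p = 0.0571) or miR-4711-5p library 2 (0.0725). Against Parent it rose by 0.48 (limma, adjusted p = 0.00712), and this was lost without miR-4711-5p library 2 (0.0530). None of these further targets reached the increase of CYR61 or ANKRD1, whose log2 fold changes against NC-1 were 1.45 and 1.15.

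**Figure D4:**
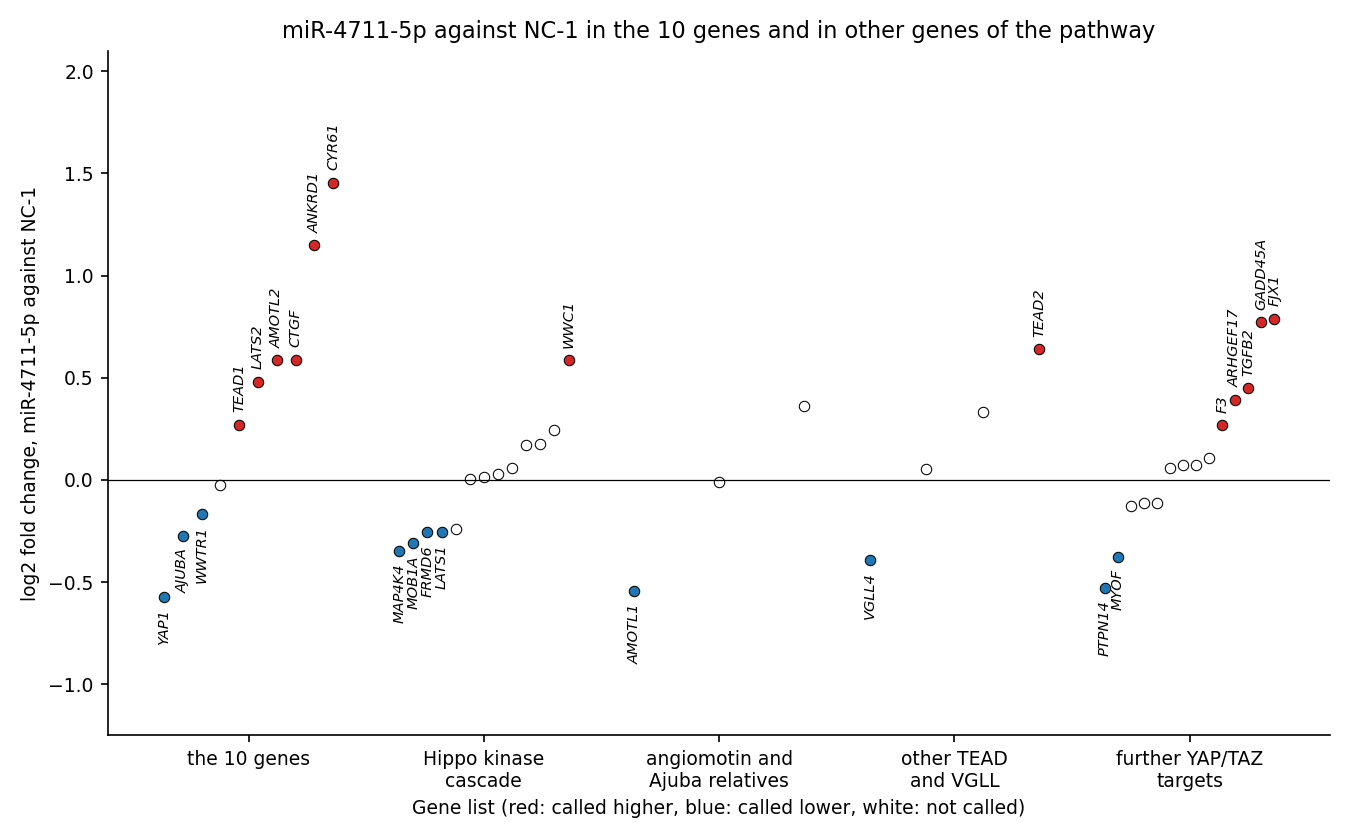
Log2 fold change of FPKM + 1 for miR-4711-5p against NC-1 (y axis) in the 10 genes and in the 4 pathway lists (x axis), with a point for each tested gene. CYR61 at 1.45 and ANKRD1 at 1.15 lie above every gene of the other lists, whose highest value was 0.79.

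The genes with a pattern over the 6 libraries most like that of CYR61, by the smallest root mean square difference in log2 values after subtraction of the Parent mean, were SP110 (0.0982) and IFIT2 (0.1). Their mean FPKM were 11.8 and 19.3 in Parent, 13.9 and 22.5 in NC-1, and 41.7 and 64.0 with miR-4711-5p. For YAP1 they were PGAP1 (0.0293), ABCA10 (0.0305) and RNF138 (0.0328). The values describe likeness over 6 libraries of 3 groups and say nothing of shared control.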

How the data were processed

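The authors prepared stranded mRNA libraries of BxPC-3 cells, mapped single-end reads to hg19 and deposited FPKM per gene symbol, normalized for gene length and library size. The submitters' processing notes name TopHat2 2.1.1, Bowtie2 2.3.5.1, SAMtools 1.2, Cufflinks 2.2.1 and Cuffdiff. The study's methods differ: they give other versions of TopHat, Bowtie2 and SAMtools, and name Cuffnorm for the FPKM. The annotation and strand option are not given in the sources used here. Groups came from the labels (2 libraries each). Count models were not used, since FPKM are normalized values and the reads behind each are unknown. The genes averaging 1 FPKM or more (12040 of 26255) were fitted in all 3 groups together with limma 3.58.1 (eBayes with a trend) in R 4.3.3 on log2(FPKM + 1), two-sided, with Benjamini-Hochberg adjustment over all of them at 0.05. The step was tested on simulated data. An exact permutation test of 2 against 2 libraries cannot go below p = 0.333 and was not used. Python 3.11.15, pandas 2.3.3 and samtools 1.23.1 served for tables and sequences. Sites were read in 3′ UTRs of GENCODE v44 on GRCh37. Alternatives were a pseudocount of 0.1, no filter, median-of-ratios rescaling, a replicate block, fits of 2 groups, eBayes without a trend, each library left out and, chosen after seeing the data, equal total FPKM per library.

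The members and lists were chosen with earlier results of these data known. Named from each pathway list were at most 3 genes, with the largest changes against NC-1 among those called in the same direction against both controls and lying outside all 4 controls in both miR-4711-5p libraries. MYOF was named besides, as the further target that lay below both controls. For CYR61 and YAP1, the rule took the 3 genes of most similar pattern, of which 1 is not reported here.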

Additional observations from a re-analysis of the deposited data

How the results depend on the processing

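Of 390 values of the 10 genes under alternatives, 353 kept their direction and side of the threshold, 34 lost the call (25 with a library left out) and 3 changed sign. No filter, the replicate block, fits of 2 groups and eBayes without a trend could change only p-values, not fold changes. The same holds for leaving out a library of the group not compared. Median-of-ratios rescaling could move little, since its factors were 1.0058 to 1.0072 over the libraries. The 353 is therefore no count of independent checks. The sign changes were small: TEAD4 against NC-1 was 0.03 with equal total FPKM and between -0.06 and 0.01 without a library (above 0 only without NC-1 library 1), and TEAD1 in NC-1 against Parent was between -0.0032 and 0.13 (below 0 only without Parent library 2). Equal total FPKM shifted the median of all genes by 0.05 (miR-4711-5p against NC-1), 0.12 (against Parent) and 0.07 (NC-1 against Parent) on the log2 scale, and turned the split of all called genes from 2214 higher and 2549 lower to 2923 and 2083, from 2255 and 2975 to 4010 and 1776, and from 1456 and 1823 to 2327 and 1000. It left the 10 genes at 6 higher and 2 lower, 7 and 1, and 6 and 1.

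With each library left out in turn, 6 to 9 of the 10 genes were called against NC-1, 7 to 10 against Parent and 5 to 7 in NC-1 against Parent (lowest without miR-4711-5p library 1, the same library, and NC-1 library 1). The pathway lists had 12 to 15, 12 to 19 and 4 to 7 calls beside 15, 22 and 11, and all genes had 2815 to 4639, 3164 to 5135 and 1355 to 2296 beside 4763, 5230 and 3279. For NC-1 against Parent, no filter gave 7 calls in the lists and 2165 over all genes, and the fit of those 2 groups alone gave 7 in the lists. The fits with a library left out and the fit of 2 groups held fewer libraries, whereas the fit with no filter used all 6. The causes of the lower counts were not tested.

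Replicate numbers are shared between groups, but the labels do not pair the libraries, and deviations of same-numbered libraries correlated at 0.06, 0.00 and -0.01 over 12040 genes. With the replicate number as a block, 9, 10 and 8 of the 10 genes were called, 17, 21 and 10 in the lists, and 4564, 4983 and 2864 over all genes. With 2 libraries a group, the reads behind low genes such as CTGF and LATS2 are unknown. Their standard errors, 0.12 and 0.08 on the log2 scale, were the largest of the 10 genes. Under the alternatives, calls were lost more often for WWTR1 and TEAD1 against NC-1 and for YAP1 and TEAD4 against Parent.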
